A study of Mus musculus with 6 samples.

Results

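Interleukin receptor genes were examined in leukaemias that MLL-AF9 had started in different cells of the bone marrow. Members were the rows of the deposited count table whose symbol is "Il", a number, "r" and any further letters or digits, leaving out Il3ra and Il6ra. This gave 40 genes of 33924 in the table, of which 23 had enough reads to be tested among 13406 tested genes. The symbols also bring in Il1rn, which encodes a secreted antagonist and not a receptor, Il22ra2, which encodes a secreted binding protein, and Il1rapl1 and Il1rapl2, known mainly from synapses.

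RNA sequencing covered 3 LSK-derived libraries (LSK 44, LSK 45 and LSK 46) and 3 GMP-derived libraries (GMP 5, GMP 11 and GMP 19). In the LSK-derived group the starting cells were LSK cells, lineage-negative Sca-1+ Kit+ marrow cells rich in stem cells. In the GMP-derived group they were granulocyte-macrophage progenitors. All 6 shared every other step: retroviral transduction with MLL-AF9, expansion in culture, transplantation of GFP+ cells into lethally irradiated syngeneic C57BL/6 mice with wild-type support marrow, recovery of leukaemia cells from the marrow of moribund recipients, and culture with SCF, IL-3 and IL-6. The labels give no drug treatment, no age of the animals and no sort after recovery, and they do not say if each library had its own transduction or recipient, so the spread behind the p-values may be partly technical. In such bulk samples fewer cells of a type and less RNA per cell cannot be told apart.

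Interleukin receptors are built from chains that are shared between cytokines. Receptors of the IL-1 family carry a cytoplasmic TIR domain and signal through MYD88 and IRAK kinases, those of the IL-17 family signal through the adaptor ACT1, and class I and class II receptors have no enzyme of their own and signal through JAK kinases and STAT factors. In most of these receptors a signal needs paired signalling chains on the same cell, while decoys and secreted binding proteins take up ligand without a signal. In the marrow these receptors are best known from lymphocytes, mast cells, eosinophils and mature myeloid cells.

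Total counts ran from 16640929 to 33885428 per library, and the members held between 0.0476% and 0.0589% of them. A count of 0 allows up to 3 counts, which is 0.180 CPM (TMM-scaled counts in each 1e6 reads) in LSK 44 and 0.0885 CPM in GMP 11, for counting error alone. Same-group libraries were no duplicates (chi-square over its degrees of freedom 10.07 to 53.9). On the second principal component of the 500 most variable genes, which held 8.13% of the variance, GMP 5 lay apart at 26.2, against -13.6 for GMP 11 and -13.5 for GMP 19. Myeloid markers were present throughout, with Ptprc (CD45) at 242 ± 29.2 CPM in LSK-derived against 387 ± 34.9 CPM in GMP-derived samples and Mpo (myeloperoxidase) at 1415 CPM in LSK 44, 795 in LSK 45 and 819 in LSK 46, against 13.8 in GMP 5, 316 in GMP 11 and 500.3 in GMP 19. Of the lymphocyte markers, Cd3e, Ncr1, Gzma, Ms4a1 and Pax5 had 0 counts in every library. The B cell list of 8 genes summed to 15.2 to 22.2 CPM across LSK-derived and 4.51 to 13.9 CPM across GMP-derived libraries, with Cd79b higher (18.1 ± 3.73 CPM in LSK-derived against 5.45 ± 2.07 CPM in GMP-derived samples, adjusted p = 0.00948) and Igll1 lower (0.259 ± 0.159 CPM in LSK-derived against 3.65 ± 3.58 CPM in GMP-derived samples, adjusted p = 0.0397).

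The LSK-derived libraries had 4 of the 23 tested members higher (Il18r1, Il17rb, Il27ra and Il18rap) and 5 lower (Il1rn, Il11ra1, Il21r, Il2rg and Il10rb) than the GMP-derived libraries. The other 14 were not called. Calls used edgeR's quasi-likelihood test with Benjamini-Hochberg adjustment over all tested genes at an adjusted p below 0.05. Over all tested genes 25.7% were called, 11.8% higher and 13.9% lower in the LSK-derived libraries, so 9 of 23 (39.1%) stands beside 25.7%. Groups did not overlap in 11 of the 23 members (47.8%), against 45.4% of all tested genes, a share near the background. The median log2 fold change (LSK-derived minus GMP-derived throughout) was 0.03 over the 23 members and 0.01 over all tested genes. Without LSK 46 there were 2 higher and 2 lower members, without LSK 44 there were 3 and 2, and without GMP 19 there were 1 and 5. Il11ra1, Il21r and Il17rb were called as reported and in each of the 16 alternatives. Of these, the fit with both Il11ra copies summed could not differ from the main fit, as Il11ra2 had 0 counts in every library.

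**Figure D1:**
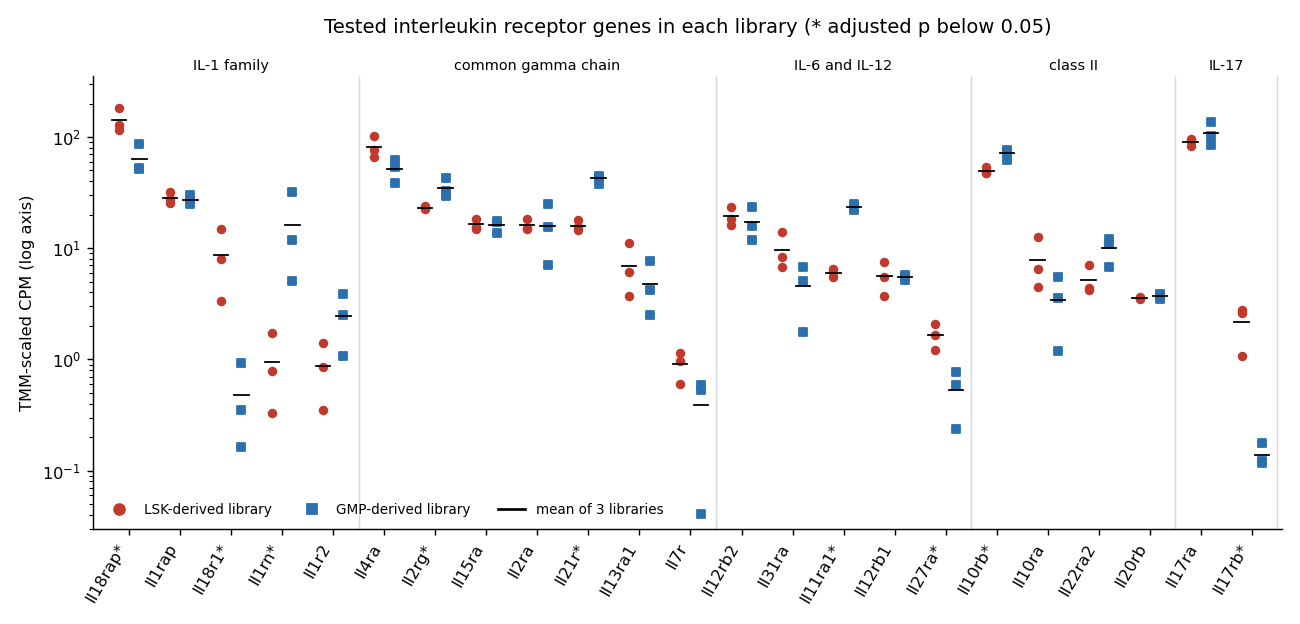
TMM-scaled CPM (log axis) of the 23 tested members in each library, grouped by receptor family, with LSK-derived libraries as circles on the left and GMP-derived libraries as squares on the right of each gene and short lines for the means of 3. The libraries of the 9 genes marked with an asterisk (adjusted p below 0.05) do not overlap between groups, while Il15ra, Il1rap and Il20rb sit at nearly the same level in both.

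**Figure D2:**
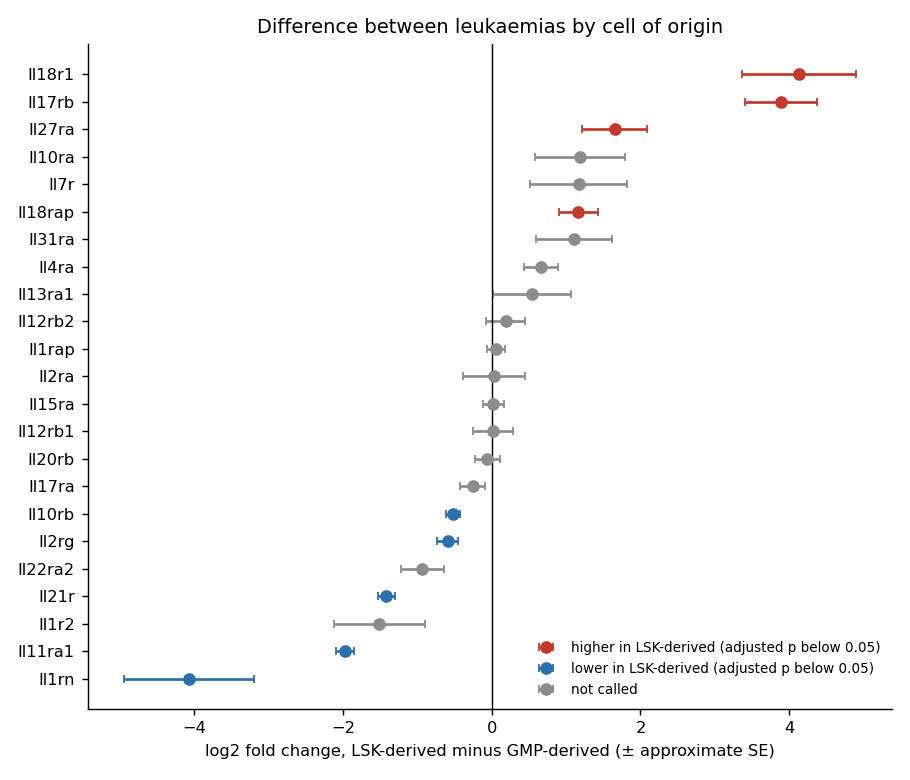
Log2 fold change, LSK-derived minus GMP-derived, of the 23 tested members with an approximate SE from the test, ordered by size. Il18r1 (4.13) and Il17rb (3.89) lie at the upper end and Il1rn (-4.07) and Il11ra1 (-1.97) at the lower end.

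Both chains of the IL-18 receptor were higher in the LSK-derived leukaemias. Il18r1 encodes the chain that binds IL-18, and Il18rap the accessory chain that completes the signalling complex. Il18r1 stood at 7.92 CPM in LSK 44, 3.38 in LSK 45 and 14.7 in LSK 46, against 0.164 in GMP 5, 0.920 in GMP 11 and 0.352 in GMP 19. Every LSK-derived library was above every GMP-derived one, and LSK 46 was the highest (log2 fold change 4.13 ± 0.77, adjusted p = 0.0124). The log2 fold change was 3.51 without LSK 46 and 4.9974 without GMP 11, and the call was lost without GMP 19 (adjusted p = 0.0555, over all alternatives 6.43e-09 to 0.0555). Il18rap was the member with the highest CPM in LSK-derived libraries, at 116 CPM in LSK 44, 128 in LSK 45 and 184 in LSK 46, against 51.9 in GMP 5, 86.9 in GMP 11 and 52.1 in GMP 19. It rose 2.24-fold with no overlap (log2 fold change 1.16 ± 0.27, adjusted p = 0.0234), and its call was lost without LSK 46 (adjusted p = 0.0647), GMP 5 (0.0505) or GMP 19 (0.0832) and with no low-count filter (0.0614), in a range of 1.86e-05 to 0.0832. Per exon length the chains were unequal in both groups. The ratio of Il18r1 to Il18rap in RPKM (reads per kilobase of annotated exon per 1e6 reads) was 0.0956 in LSK 44, 0.0370 in LSK 45 and 0.113 in LSK 46, against 0.00443 in GMP 5, 0.0149 in GMP 11 and 0.00947 in GMP 19, so that the binding chain was the scarcer in every library and least so in the LSK-derived ones. T and NK cell markers, a cell type known for this receptor, summed to 6.90 to 8.21 CPM across LSK-derived and 7.21 to 7.65 CPM across GMP-derived libraries over 12 genes, mostly from Lck (6.50 ± 0.731 CPM in LSK-derived against 7.17 ± 0.217 CPM in GMP-derived samples). Cd3e, Ncr1 and Gzma were at 0 counts, and 1 of the 2 tested genes of that list, Klrb1c, was higher (0.484, 1.18 and 0.541 CPM in the LSK-derived libraries, against 0.0410, 0.0297 and 0 CPM in the GMP-derived ones, adjusted p = 0.00518). The part of such cells in the IL-18 receptor values was not tested.

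Among the other signalling chains of the IL-1 family, Il1r1, Il1rl1 and Il1rl2 had few counts, while the shared chain Il1rap, which serves the IL-1, IL-33 and IL-36 receptors, was well detected. Il1rap stood at 31.9, 27.8 and 25.6 CPM in the LSK-derived libraries, against 24.8, 27.0 and 30.1 CPM in the GMP-derived ones, and the groups overlapped (adjusted p = 0.757). Il1r1, the signalling IL-1 receptor, had 3 counts in LSK 44, 22 in LSK 45 and 5 in LSK 46, against 3 in GMP 5, 1 in GMP 11 and 5 in GMP 19. Il1rl1, which encodes the IL-33 receptor ST2 of mast cells and type 2 immune cells, had 8 counts in LSK 44, 4 in LSK 45 and 17 in LSK 46, against 6 in GMP 5, 0 in GMP 11 and 0 in GMP 19. Il1rl2, the IL-36 receptor, had 1 counts in LSK 44, 3 in LSK 45 and 0 in LSK 46, against 2 in GMP 5, 10 in GMP 11 and 32 in GMP 19. These genes were too low for the test, and with no low-count filter none of them was called by edgeR (adjusted p = 0.106 for Il1r1, 0.194 for Il1rl1 and 0.127 for Il1rl2). All 6 GMP-derived counts of Il1rl1 were in GMP 5. In the edgeR fit without that library Il1rl1 passed the filter through its LSK-derived counts alone and was called higher in LSK-derived libraries. As that fit left out every GMP-derived count of Il1rl1, its call cannot tell if the groups differ. Il1rapl1 and Il1rapl2 had 0 counts in all libraries.

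Of the inhibitors of IL-1, Il1rn fell and the decoy Il1r2 was not called. Il1rn encodes the antagonist that occupies the IL-1 receptor without a signal, and it stood at 0.786 CPM in LSK 44, 1.73 in LSK 45 and 0.333 in LSK 46, against 5.04 in GMP 5, 11.8 in GMP 11 and 31.9 in GMP 19. The groups did not overlap, and GMP 19 was the highest (log2 fold change -4.07 ± 0.87, adjusted p = 0.0193). The log2 fold change was -3.12 without GMP 19 and -4.91 without LSK 45. The call was lost without LSK 44 (adjusted p = 0.0786) or LSK 46 (0.0700), under limma voom (0.0575) and where low counts were kept (0.0671), in a range of 0.000156 to 0.0786. Il1r2, the decoy receptor that lacks a signalling domain, stood at 0.847 CPM in LSK 44, 0.353 in LSK 45 and 1.42 in LSK 46, against 1.07 in GMP 5, 2.52 in GMP 11 and 3.84 in GMP 19. LSK 46 overlapped GMP 5, and the gene was not called (log2 fold change -1.51 ± 0.61, adjusted p = 0.116). Neutrophil markers, which include genes of late granulocyte maturation, summed over 6 genes to 14.3 CPM in LSK 44, 4.67 in LSK 45 and 6.54 in LSK 46, against 12.2 in GMP 5, 46.5 in GMP 11 and 403 in GMP 19. Among GMP-derived libraries this was the order of Il1rn and of Il1r2. Among LSK-derived libraries it was not, since LSK 45 was lowest for the markers and highest for Il1rn, and LSK 46 was highest for Il1r2. None of the 6 was at 0 throughout, and of 4 tested Ly6g was higher (3.21 ± 0.557 CPM in LSK-derived against 0.926 ± 0.396 CPM in GMP-derived samples, adjusted p = 0.0142) and S100a9 lower (1.30 ± 1.45 CPM in LSK-derived against 73.4 ± 105 CPM in GMP-derived samples, adjusted p = 0.0476). S100a8 alone stood at 6.17, 0.510 and 1.42 CPM in the LSK-derived libraries, against 4.92, 23.0 and 192 CPM in the GMP-derived ones. Camp, a late granule gene, had 0 counts in the LSK-derived libraries and 0.164, 1.40 and 11.6 CPM in GMP 5, GMP 11 and GMP 19. The part of these markers in the values of Il1rn and Il1r2 was not tested.

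Il1r2, Il1r1, Il1rl2, Il1rl1, Il18r1 and Il18rap are neighbours on chromosome 1, in that order in the RefSeq annotation. Along this row Il1r1, Il1rl1, Il18r1 and Il18rap had the higher means in LSK-derived libraries and Il1r2 and Il1rl2 in GMP-derived libraries, with a call for Il18r1 and Il18rap alone. The flanking gene Map4k4, a kinase gene, was not called (log2 fold change 0.25 ± 0.54, adjusted p = 0.764), and Slc9a4 on the other side had 1 count in all. The promoters of the called pair are shown because the genes lie next to each other and were higher together. They are 300 bases from RefSeq (GRCm38.p6, a later build than the mm9 of the counts), 250 before to 50 after the annotated start, read 5′ to 3′. Capitals mark the letters TGTGGT or their complement on the other strand (the RUNX motif) and GAGGAAGT (a PU.1 motif). The Il18r1 window (chr1:40465302-40465601, plus strand, the first of 3 listed starts) held none of them, although the window of another listed start held 1 RUNX match and that of the third 2 STAT matches (TTCNNNGAA), and the Il18rap window (chr1:40515112-40515411, plus strand) held 1 of each.
Il18r1: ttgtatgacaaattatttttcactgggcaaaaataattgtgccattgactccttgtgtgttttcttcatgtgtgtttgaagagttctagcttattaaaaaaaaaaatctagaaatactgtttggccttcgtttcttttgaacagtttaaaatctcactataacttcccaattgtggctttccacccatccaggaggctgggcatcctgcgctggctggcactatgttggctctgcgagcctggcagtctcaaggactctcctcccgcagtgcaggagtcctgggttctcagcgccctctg
Il18rap: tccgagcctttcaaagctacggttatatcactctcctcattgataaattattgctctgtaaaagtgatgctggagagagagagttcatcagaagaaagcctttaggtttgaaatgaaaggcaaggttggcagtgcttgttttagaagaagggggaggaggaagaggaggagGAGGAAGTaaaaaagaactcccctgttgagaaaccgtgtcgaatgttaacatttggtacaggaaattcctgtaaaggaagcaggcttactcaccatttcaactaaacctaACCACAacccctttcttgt

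**Figure D3:**
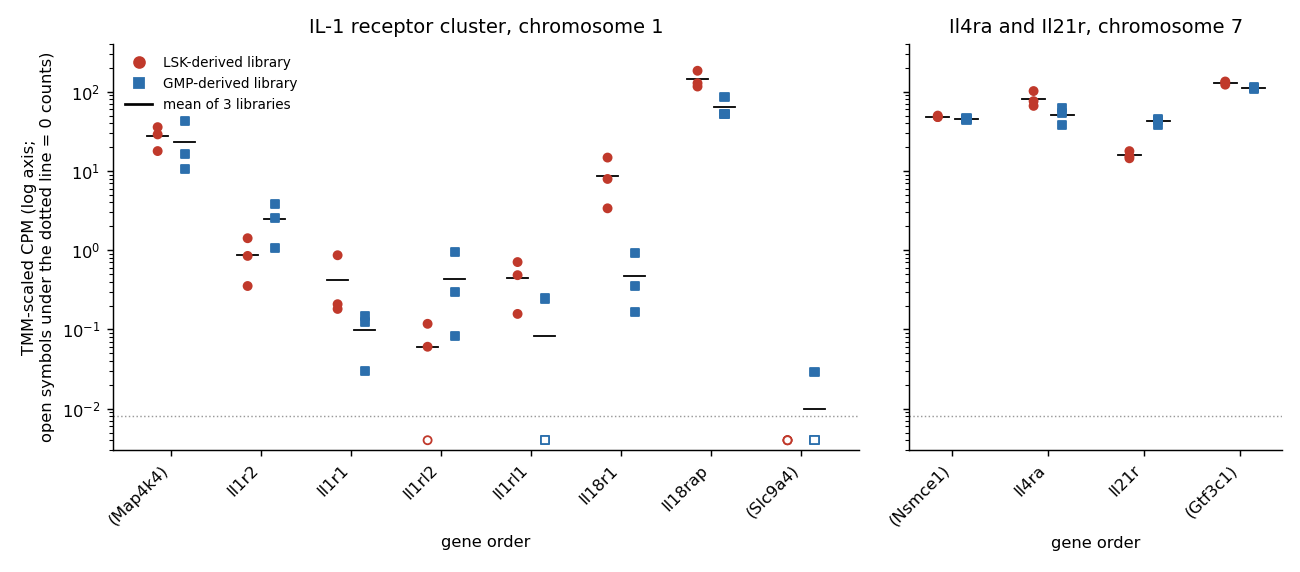
TMM-scaled CPM (log axis) in each library for neighbouring members in their gene order on chromosome 1 and chromosome 7, with flanking genes in brackets, LSK-derived libraries left of GMP-derived ones and short lines for means. On chromosome 1 Il1r2 and Il1rl2 have the lower means in LSK-derived libraries and Il1r1, Il1rl1, Il18r1 and Il18rap the higher ones, and on chromosome 7 Il4ra has the higher mean in LSK-derived and Il21r in GMP-derived libraries.

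Receptors grouped here as the common gamma chain family had 2 of 7 tested members lower in LSK-derived leukaemias and none higher. Over all tested genes 13.9% were lower and 25.7% were called in either direction, a share near that of the family. The group also holds the IL-13 chains Il13ra1 and Il13ra2, although the IL-13 receptor does not contain the common gamma chain. Il21r encodes the specific chain of the IL-21 receptor and fell 2.67-fold, with 17.8 CPM in LSK 44, 14.4 in LSK 45 and 15.4 in LSK 46, against 44.1 in GMP 5, 38.1 in GMP 11 and 44.9 in GMP 19. The ranges lay far apart compared with the spread inside each group (log2 fold change -1.42 ± 0.11, adjusted p = 0.000657). Il2rg encodes the common gamma chain itself, which is part of receptors for IL-2, IL-4, IL-7, IL-9, IL-15 and IL-21. Il2rg stood at 23.1 CPM in LSK 44, 22.6 in LSK 45 and 23.9 in LSK 46, against 42.9 in GMP 5, 29.4 in GMP 11 and 32.9 in GMP 19. It fell 1.51-fold without overlap (log2 fold change -0.59 ± 0.14, adjusted p = 0.0254), and the call was lost without LSK 44 (adjusted p = 0.0852), LSK 45 (0.0639) or LSK 46 (0.0755). In the reference annotation 728 of its exon bases are shared with Gm20489, a row with 0 counts here.

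Il4ra, the chain that IL-4 and IL-13 receptors share and that activates STAT6, had the highest mean CPM of this family in both groups. Per exon length it was highest in LSK-derived libraries (13.6 RPKM). In GMP-derived libraries Il2rg (14.7 RPKM) and Il21r (12.7) were above Il4ra (8.56). Il4ra stood at 76.0 CPM in LSK 44, 102 in LSK 45 and 66.2 in LSK 46, against 38.4 in GMP 5, 53.3 in GMP 11 and 62.4 in GMP 19. All LSK-derived libraries were above all GMP-derived ones, yet LSK 46 and GMP 19 were close and edgeR did not call it (log2 fold change 0.66 ± 0.22, adjusted p = 0.0739), while DESeq2 did (adjusted p = 0.0136, over all alternatives 0.0136 to 0.158). Its partner in the type II receptor, Il13ra1, stood at 6.11, 11.1 and 3.75 CPM in the LSK-derived libraries, against 2.50, 4.19 and 7.68 CPM in the GMP-derived ones and overlapped (adjusted p = 0.490). Stat6 was at 122 ± 3.43 CPM in LSK-derived against 138 ± 13.0 CPM in GMP-derived samples and was not called (adjusted p = 0.155).

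Il4ra and Il21r are direct neighbours on chromosome 7 and lay on opposite sides. The ratio of Il21r to Il4ra in RPKM was 0.423 in LSK 44, 0.256 in LSK 45 and 0.419 in LSK 46, against 2.08 in GMP 5, 1.29 in GMP 11 and 1.30 in GMP 19. It was below 1 in every LSK-derived library and above 1 in every GMP-derived one. The flanking genes Nsmce1, a repair complex gene (48.6 ± 1.17 CPM in LSK-derived against 44.9 ± 1.10 CPM in GMP-derived samples), and Gtf3c1, a transcription factor gene (129 ± 6.03 CPM in LSK-derived against 111 ± 2.70 CPM in GMP-derived samples), stood close between groups, with Gtf3c1 called (log2 fold change 0.22 ± 0.06, adjusted p = 0.0453) and Nsmce1 not (adjusted p = 0.251). Their promoters are given for this contrast, with the same capitals. Il21r (chr7:125603179-125603478, plus strand) held 1 RUNX motif, and Il4ra (chr7:125552021-125552320, plus strand) held neither motif.
Il21r: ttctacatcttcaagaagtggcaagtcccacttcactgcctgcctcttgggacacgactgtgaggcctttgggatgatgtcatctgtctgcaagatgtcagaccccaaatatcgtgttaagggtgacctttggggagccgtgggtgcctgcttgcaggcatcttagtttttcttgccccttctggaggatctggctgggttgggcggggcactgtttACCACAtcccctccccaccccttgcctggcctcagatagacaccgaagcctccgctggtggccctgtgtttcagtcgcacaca
Il4ra: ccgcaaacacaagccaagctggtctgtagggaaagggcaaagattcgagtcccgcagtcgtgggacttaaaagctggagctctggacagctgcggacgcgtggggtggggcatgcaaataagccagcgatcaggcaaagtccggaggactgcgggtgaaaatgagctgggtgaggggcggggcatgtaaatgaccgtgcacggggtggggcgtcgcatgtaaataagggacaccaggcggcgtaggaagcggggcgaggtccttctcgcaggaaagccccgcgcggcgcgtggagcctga

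Of 32851 promoters of this length in the RefSeq table, 16.8% held the RUNX letters and 3.2% the PU.1 letters. Of the 41 promoters listed for 33 members, 22.0% and 2.4% did. The STAT motif TTCNNNGAA was in 12.2% of the member promoters and 8.3% of all, and the C/EBP letters TTGCNNAA in 17.1% and 10.8%, each searched on both strands. These matches describe letters in a window and not binding. Members Il10ra, Il10rb, Il12rb1, Il17ra, Il22ra2, Il27ra and Il2rb had no promoter in the table.

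Of the chains specific to IL-2 and IL-15, Il2ra and Il15ra were not called and Il2rb was too low to be tested. Il2ra, the high-affinity IL-2 chain CD25, stood at 15.0 CPM in LSK 44, 15.3 in LSK 45 and 18.2 in LSK 46, against 25.2 in GMP 5, 7.12 in GMP 11 and 15.5 in GMP 19, with GMP 5 and GMP 11 at the ends of the whole range (log2 fold change 0.03 ± 0.42, adjusted p = 0.968). Its neighbour on chromosome 2, Il15ra, which presents IL-15 to other cells, stood at 14.9, 18.5 and 15.6 CPM in the LSK-derived libraries, against 13.8, 17.5 and 17.0 CPM in the GMP-derived ones and the groups overlapped (log2 fold change 0.02 ± 0.14, adjusted p = 0.923). Il2rb, the signalling chain that both cytokines need, had 1 counts in LSK 44, 0 in LSK 45 and 3 in LSK 46, against 0 in GMP 5, 1 in GMP 11 and 0 in GMP 19, so few that no direction can be read. Il7r, the lymphoid IL-7 receptor, stood at 0.605, 1.14 and 0.958 CPM in the LSK-derived libraries, against 0.0410, 0.534 and 0.586 CPM in the GMP-derived ones without overlap and was not called (adjusted p = 0.231). Il9r had 5 counts in all and Il13ra2 none. Il5ra, the eosinophil IL-5 chain, had 4 counts in LSK 44, 1 in LSK 45 and 1 in LSK 46, against 1 in GMP 5, 0 in GMP 11 and 0 in GMP 19. Of 9 tested genes among 14 markers of mast cells, basophils and eosinophils, 3 were higher and 1 was lower, where 11.8% of all tested genes were higher and 13.9% lower. Those higher were the eosinophil granule genes Prg2 (29.8, 4.51 and 15.5 CPM in the LSK-derived libraries, against 1.31, 0.0891 and 0.557 CPM in the GMP-derived ones, adjusted p = 0.0186) and Epx (11.8 ± 9.76 CPM in LSK-derived against 0.0273 ± 0.0473 CPM in GMP-derived samples, adjusted p = 0.00566) and the basophil protease gene Mcpt8 (30.6 ± 1.13 CPM in LSK-derived against 13.1 ± 1.96 CPM in GMP-derived samples, adjusted p = 0.00153). Hdc, which encodes the enzyme that makes histamine, was lower (8.65, 12.9 and 8.91 CPM in the LSK-derived libraries, against 185, 55.9 and 64.4 CPM in the GMP-derived ones, adjusted p = 0.00742). The mast cell protease gene Cpa3 stood at 1.69, 0.157 and 2.87 CPM in the LSK-derived libraries, against 88.5, 0.683 and 0.968 CPM in the GMP-derived ones and was not called (adjusted p = 0.185). The part of such cells in the receptor values was not tested.

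In the IL-6 and IL-12 family Il11ra1 showed the smallest p of all members. It encodes the chain that binds IL-11 and hands it to gp130. Its levels were 6.53 CPM in LSK 44, 5.46 in LSK 45 and 6.08 in LSK 46, against 23.5 in GMP 5, 22.1 in GMP 11 and 25.1 in GMP 19. It fell 3.91-fold, each group being tight (log2 fold change -1.97 ± 0.12, adjusted p = 0.000371). The mouse genome holds near-identical copies, and Il11ra2 had 0 counts in every library, and how reads that match several copies were counted is not given, so this level is uncertain. Its exons share 8 bases with Ccl27a. Il27ra, the IL-27 receptor chain that also works through gp130, was higher at a low level, with 1.21 CPM in LSK 44, 1.65 in LSK 45 and 2.08 in LSK 46, against 0.779 in GMP 5, 0.237 in GMP 11 and 0.586 in GMP 19. It rose 3.14-fold without overlap (log2 fold change 1.65 ± 0.44, adjusted p = 0.0347), but the call was lost in each fit without a library except GMP 5, with adjusted p up to 0.119 without LSK 46 (0.0659 without LSK 44, 0.0721 without LSK 45, 0.0620 without GMP 11 and 0.0809 without GMP 19). Il6st, the gp130 gene itself, was at 38.2 ± 14.3 CPM in LSK-derived against 22.0 ± 6.24 CPM in GMP-derived samples and was not called (adjusted p = 0.119).

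Both IL-12 receptor chains were present and neither was called. Il12rb1, shared by the IL-12 and IL-23 receptors, stood at 5.50, 3.69 and 7.54 CPM in the LSK-derived libraries, against 5.20, 5.70 and 5.60 CPM in the GMP-derived ones (log2 fold change 0.02 ± 0.26, adjusted p = 0.968). Il12rb2, the IL-12 signalling chain, stood at 18.2, 16.3 and 23.7 CPM in the LSK-derived libraries, against 23.4, 11.9 and 15.9 CPM in the GMP-derived ones (log2 fold change 0.19 ± 0.27, adjusted p = 0.642). LSK 46 was highest for Il12rb1 and for Il12rb2, and GMP 11 lowest for Il12rb2. In the reference 1519 exon bases of Il12rb2 overlap the abundant gene Serbp1 on the other strand (1054 ± 80.2 CPM in LSK-derived against 903 ± 81.3 CPM in GMP-derived samples), and as the strand setting of the counting is not given, its level is uncertain. Il23r had 0 counts over the LSK-derived group and 3 over the GMP-derived group. Il31ra, which pairs with the oncostatin M receptor to bind IL-31, stood at 8.41 CPM in LSK 44, 14.0 in LSK 45 and 6.75 in LSK 46, against 6.76 in GMP 5, 1.78 in GMP 11 and 5.07 in GMP 19. GMP 5 reached the LSK-derived range, and the gene was not called by edgeR (log2 fold change 1.11 ± 0.51, adjusted p = 0.161) but was by limma voom with sample weights (adjusted p = 0.0445). Osmr, the gene of its partner chain, had 4 counts in LSK 46 and 0 in every other library.

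Class II receptors were led by Il10rb, the shared chain of the IL-10, IL-22 and lambda interferon receptors. It stood at 47.5 CPM in LSK 44, 53.5 in LSK 45 and 47.7 in LSK 46, against 62.7 in GMP 5, 77.1 in GMP 11 and 73.6 in GMP 19. It fell 1.44-fold, all LSK-derived libraries lying below all GMP-derived ones (log2 fold change -0.52 ± 0.10, adjusted p = 0.0116), and missed the threshold without LSK 44 (adjusted p = 0.0529) or LSK 46 (0.0525). Il10ra, the chain that binds IL-10, had the higher mean in LSK-derived libraries, with 6.47 CPM in LSK 44, 12.7 in LSK 45 and 4.50 in LSK 46, against 1.19 in GMP 5, 3.59 in GMP 11 and 5.54 in GMP 19. Its spread within groups was wide and the groups overlapped (log2 fold change 1.19 ± 0.61, adjusted p = 0.199). Il22ra2, the secreted IL-22 binding protein gene, stood at 4.17 CPM in LSK 44, 7.03 in LSK 45 and 4.37 in LSK 46, against 12.0 in GMP 5, 6.83 in GMP 11 and 10.99 in GMP 19. LSK 45 lay just above GMP 11, and edgeR left it short of a call (log2 fold change -0.93 ± 0.29, adjusted p = 0.0560), while DESeq2 called it (0.0167), as did edgeR without LSK 45 (0.0308), without GMP 11 (0.0361) or with no filter (0.0472).

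Il28ra, the lambda interferon receptor chain now named Ifnlr1, was detected in the GMP-derived libraries alone. It had 0 counts in LSK 44, 0 in LSK 45 and 0 in LSK 46, against 7 in GMP 5, 11 in GMP 11 and 18 in GMP 19. Its GMP-derived mean of 0.380 CPM was 8.38-fold the level of 3 counts over the LSK-derived group, leaving out the counting error of the mean itself. The gene was too low for the main comparison (adjusted p = 0.00669 by edgeR with no low-count filter). Il20ra was the converse at a lower level, with 1 counts in LSK 44, 2 in LSK 45 and 3 in LSK 46, against 0 in GMP 5, 0 in GMP 11 and 0 in GMP 19. Its LSK-derived mean was 2.70-fold the level of 3 counts over the GMP-derived group, again without the counting error of the mean. With no filter it was not called (adjusted p = 0.0789). Il20rb, its partner in the IL-20 receptor, stood at 3.63, 3.57 and 3.50 CPM in the LSK-derived libraries, against 3.85, 3.83 and 3.49 CPM in the GMP-derived ones with overlap (log2 fold change -0.06 ± 0.17, adjusted p = 0.818), and Il22ra1 had 0 counts.

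Of the IL-17 receptors, Il17ra, the chain shared by the family, was abundant in both groups and Il17rb rose 14.9-fold in LSK-derived libraries. Il17ra stood at 96.7 CPM in LSK 44, 92.6 in LSK 45 and 83.7 in LSK 46, against 85.4 in GMP 5, 103 in GMP 11 and 137 in GMP 19, with overlap between groups and GMP 19 the highest (log2 fold change -0.25 ± 0.17, adjusted p = 0.313). Il17rb encodes the IL-25 receptor and is known by the older name Evi27, given to it as a common site of viral integration in mouse myeloid leukaemia. It stood at 2.78 CPM in LSK 44, 2.63 in LSK 45 and 1.08 in LSK 46, against 0.123 in GMP 5, 0.178 in GMP 11 and 0.117 in GMP 19, from 139 counts in all LSK-derived and 13 in all GMP-derived libraries. Every LSK-derived library was well above the GMP-derived ones, and LSK 46 was the lowest of them (log2 fold change 3.89 ± 0.48, adjusted p = 0.00258). Exons of Il17rb share 141 bases with Actr8 on the other strand. Actr8, an actin-related chromatin gene, stood at 42.2 ± 1.20 CPM in LSK-derived against 40.4 ± 1.26 CPM in GMP-derived libraries. Il17rc and Il17re, neighbours on chromosome 6, had at most 9 and 6 counts in a library, and Il17rd had none.

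**Figure D4:**
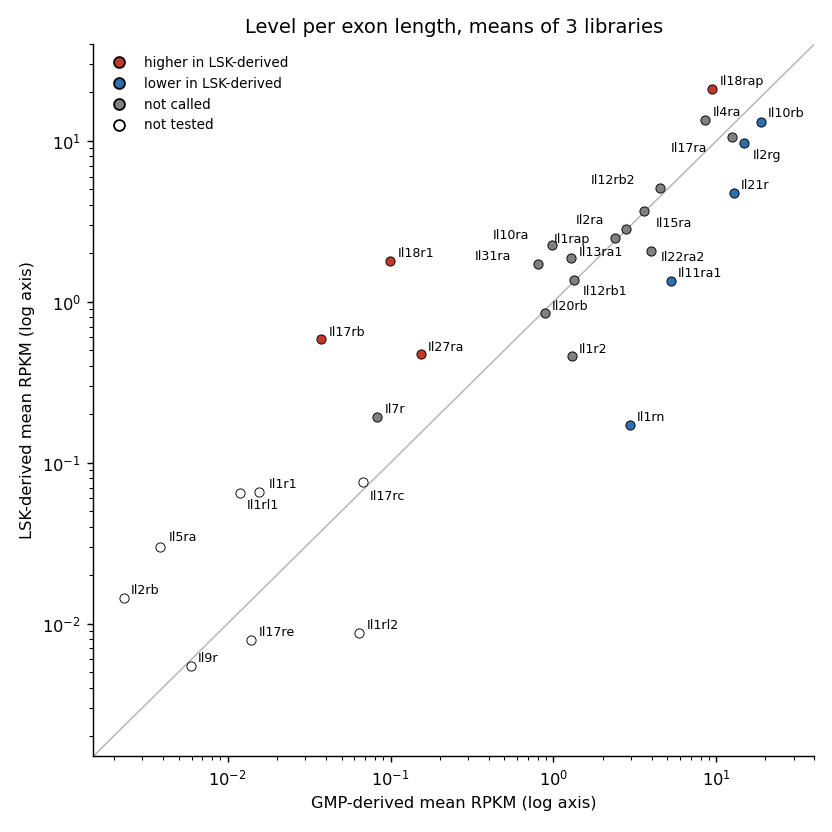
Mean RPKM over 3 libraries of each member with counts in both groups, LSK-derived on the vertical and GMP-derived on the horizontal axis (both log), with the line of equality and colours for the calls. Il18r1, Il17rb and Il27ra lie above the line at low levels, Il1rn, Il11ra1 and Il21r below it, and most abundant members lie close to it.

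Per exon length Il18rap, Il10rb, Il17ra and Il2rg were among the 5 highest members in both groups. In the LSK-derived libraries Il18rap was first (21.1 RPKM), then Il4ra (13.6), Il10rb (13.0), Il17ra (10.5) and Il2rg (9.73 RPKM). In the GMP-derived libraries Il10rb was first (18.7 RPKM), then Il2rg (14.7), Il21r (12.7), Il17ra (12.5) and Il18rap (9.42 RPKM). In the LSK-derived group the library ranges of Il4ra overlapped those of Il10rb and of Il17ra, while every Il10rb value was above every Il17ra value. Compared within each LSK-derived library, Il4ra was above Il17ra throughout. In the GMP-derived group the library range of each of these genes overlapped that of its neighbour in the order. Compared within each GMP-derived library, Il2rg was above Il21r throughout, while the order of the other neighbours changed between libraries. The summed CPM of the IL-1 family was 158 CPM in LSK 44, 162 in LSK 45 and 227 in LSK 46, against 83.4 in GMP 5, 129 in GMP 11 and 119 in GMP 19, with Il18rap the largest part in every library. The common gamma chain family, counted with the IL-13 chains, summed to 154 CPM in LSK 44, 185 in LSK 45 and 144 in LSK 46, against 167 in GMP 5, 150.2 in GMP 11 and 181 in GMP 19, with overlap between groups.

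Genes around the receptors were read from the same fit. Of 38 ligand genes with a row, 32 were too low to be tested and none of the other 6 was called by edgeR (2 at an unadjusted p below 0.05, 1 called by DESeq2, 0 by limma voom with or without sample weights). The most abundant was Il12a, the p35 subunit of IL-12, at 23.0 CPM in LSK 44, 35.2 in LSK 45 and 31.8 in LSK 46, against 7.05 in GMP 5, 23.7 in GMP 11 and 13.4 in GMP 19 (log2 fold change 1.03 ± 0.42, adjusted p = 0.125). Il12b, which encodes the other subunit of IL-12, had 1 count in GMP 19 and 0 in every other library. Among 13 partner chains and decoys, 2 of 11 tested were higher and 1 was lower. Lifr, the LIF receptor gene that pairs with gp130, stood at 2.00 CPM in LSK 44, 2.63 in LSK 45 and 1.62 in LSK 46, against 0 in GMP 5, 0.0891 in GMP 11 and 0.117 in GMP 19 (log2 fold change 4.72 ± 0.57, adjusted p = 0.00225), Sigirr, an inhibitory relative of the IL-1 receptors, at 17.5, 21.9 and 24.1 CPM in the LSK-derived libraries, against 9.39, 13.1 and 13.3 CPM in the GMP-derived ones (log2 fold change 0.83 ± 0.18, adjusted p = 0.0177), and Csf2rb, the beta chain of the IL-3, IL-5 and GM-CSF receptors, at 178, 255 and 173 CPM in the LSK-derived libraries, against 396, 417 and 449.7 CPM in the GMP-derived ones (log2 fold change -1.06 ± 0.16, adjusted p = 0.00498). Csf2rb shares much of its sequence with the IL-3-specific copy Csf2rb2 (46.1 ± 20.8 CPM in LSK-derived against 90.2 ± 14.0 CPM in GMP-derived samples, adjusted p = 0.0631), so the split of reads between them is uncertain. Of those tested, 27.3% were called, where the background is 25.7%. Without LSK 46 there was 1 higher partner gene, and there were 4 lower ones without LSK 45 and 2 without GMP 5.

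On the JAK-STAT side 9 of 28 genes were higher and 6 were lower, with 13 not called. This was 53.6% called, beside 25.7% over all tested genes (11.8% higher and 13.9% lower). The median log2 fold change was 0.20 beside 0.01 over all tested genes. The smallest p-values belonged to feedback inhibitors and targets of STAT5, namely Socs2 (98.5 ± 8.39 CPM in LSK-derived against 22.6 ± 4.60 CPM in GMP-derived samples, log2 fold change 2.12 ± 0.15, adjusted p = 0.000541), Pim1 (247 ± 26.4 CPM in LSK-derived against 107 ± 18.8 CPM in GMP-derived samples, log2 fold change 1.21 ± 0.14, adjusted p = 0.0020) and Cish (51.8 ± 5.54 CPM in LSK-derived against 17.2 ± 4.79 CPM in GMP-derived samples, log2 fold change 1.59 ± 0.20, adjusted p = 0.00315). Jak1, which most of these receptors use, was lower (169.7 ± 3.62 CPM in LSK-derived against 205 ± 15.6 CPM in GMP-derived samples, adjusted p = 0.0366), and Jak3, the partner of the common gamma chain, was at 49.6 ± 7.08 CPM in LSK-derived against 37.1 ± 9.01 CPM in GMP-derived samples and not called (adjusted p = 0.168). The counts were 5 higher without LSK 46 or GMP 11, and 3 lower without LSK 44 or LSK 46. On the TIR and IL-17 side 1 of 19 genes was higher and 5 were lower (31.6% called, near the 25.7% of all tested genes, median -0.01). The kinase gene Irak4, which starts the signal at MYD88, fell 1.54-fold (35.7 ± 3.42 CPM in LSK-derived against 55.0 ± 4.61 CPM in GMP-derived samples, adjusted p = 0.00679) and Irak2 fell 2.62-fold (8.66 ± 0.510 CPM in LSK-derived against 22.7 ± 7.23 CPM in GMP-derived samples, adjusted p = 0.00935). Irak3, which encodes the inhibitory relative IRAK-M, rose 1.99-fold (36.4 ± 3.67 CPM in LSK-derived against 18.3 ± 1.18 CPM in GMP-derived samples, adjusted p = 0.00157). There were 3 lower genes without LSK 44 or LSK 46 and 2 higher without GMP 19.

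**Figure D5:**
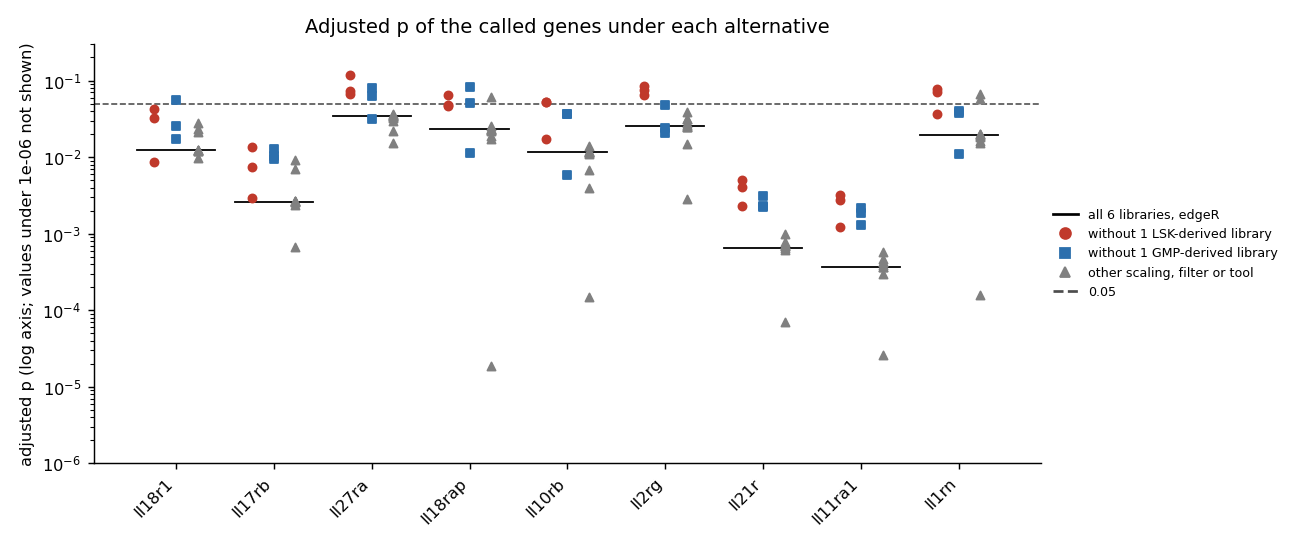
Adjusted p (log axis) of the 9 called members under each alternative, with the reported value as a line, fits without 1 LSK-derived library as circles, fits without 1 GMP-derived library as squares, other scalings, filters and tools as triangles, and the threshold of 0.05 dashed (values under 1e-06 are not shown). Il17rb, Il21r and Il11ra1 stay below the threshold throughout, while the others cross it in at least 1 fit that leaves out a library.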

How the data were processed

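The deposited file is a single table, 6 mouse libraries wide, of raw counts for each gene symbol, which the authors did not normalize. TRIzol extraction and TruSeq RNA libraries are as the labels' protocols describe. STAR 2.4, HTSeq 0.6.1, DESeq2 and mm9 come from the submitters' processing notes, which assign them no role. Gene annotation and strand setting: not given in the sources used here.

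All 33924 rows name a gene. Rows were filtered with filterByExpr (minimum count 10), scaled by TMM and tested with edgeR 4.0.16 in R 4.3.3 (glmQLFit with robust estimation, glmQLFTest), 3 LSK-derived against 3 GMP-derived libraries, with no covariate. CPM are counts over the TMM-scaled library size. The approximate SE is the absolute log2 fold change over the square root of the F statistic. RPKM use the union of GENCODE M21 exons (GRCm38, not mm9). Alternatives were other scalings and filters, limma 3.58.1 voom, DESeq2 1.42.0, both Il11ra copies summed, and leaving out each library. Each method was also run on counts simulated from the edgeR dispersions with few changed genes, which cannot vouch for the calls in these data. The interleukin receptor genes, related lists and tests were chosen with earlier results of these data known. Members all get a value or a range, and from each related list up to 3 called genes by smallest p were named (without calls, the most abundant). Serbp1, Actr8, Jak1, Jak3, Stat6, Il6st, Csf2rb2, Osmr, Il12b, Gata2 and the genes beside receptor clusters were named beyond that rule, after their values were seen. Alternatives gave no row where a gene failed the filter.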

Additional observations from a re-analysis of the deposited data

How the results depend on the processing

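Of the 9 called interleukin receptor genes, Il11ra1, Il17rb and Il21r were called under all 16 alternatives and 6 lost the call in at least 1, among them 4 (Il10rb, Il18r1, Il27ra and Il2rg) only in fits that left out a library. The alternative with both Il11ra copies summed could not change any call, because Il11ra2 had 0 counts. Of the 14 genes not called, Il22ra2, Il31ra and Il4ra were called in at least 1 alternative. Among members not tested in the main fit, Il28ra was called lower with no filter and by DESeq2. Il1rl1 was called higher without GMP 5, the library that held all its GMP-derived counts. No call changed direction. Other scalings, filters and tools left 3 to 5 members higher and 4 to 7 lower. Fits without a library gave 1 to 4 higher and 2 to 6 lower members, and 770 to 1523 higher and 973 to 1944 lower genes in the whole table. In those fits the ligands had 0 to 1 higher and 0 to 1 lower genes, the partner chains 1 to 2 and 1 to 4, the JAK-STAT side 5 to 8 and 3 to 6, and the TIR and IL-17 side 1 to 2 and 3 to 6. The cause of these shifts was not tested, beyond there being fewer samples. The median log2 fold change of all genes stayed between -0.02 and 0.04 in every alternative. No paired analysis was possible because the groups share no library number. Depth limits the 17 members not tested, of which 6 had 0 counts in all libraries.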

Other observations

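In all, 18 of the 40 interleukin receptor genes lie beside another member in the RefSeq gene order, in 7 groups. Il22ra2 and Il20ra on chromosome 10 stand between Ifngr1, the interferon gamma receptor gene (385 ± 66.4 CPM in LSK-derived against 420.0 ± 10.2 CPM in GMP-derived samples, adjusted p = 0.489), and Slc35d3, a transporter gene (1.03, 0.157 and 3.29 CPM in the LSK-derived libraries, against 0.0410, 0.0891 and 0.498 CPM in the GMP-derived ones, adjusted p = 0.139), and edgeR called neither. Il28ra and Il22ra1 are neighbours on chromosome 4, and Il22ra1 had 0 counts where Il28ra had 36 in the GMP-derived libraries.

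Markers of mast cells, basophils and eosinophils, cells known for the receptors of IL-5, IL-9 and IL-33, summed to 118 to 195 CPM across LSK-derived and 90.7 to 347 CPM across GMP-derived libraries over 14 genes. GMP 5 had the highest sum, mostly from Hdc and Cpa3. In each LSK-derived library the largest part of the sum was Gata2 (64.5, 60.1 and 108 CPM, against 45.6, 13.8 and 12.0 CPM in the GMP-derived ones). The corresponding receptor genes Il5ra, Il9r and Il1rl1 stayed at or under 17 counts in each library.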
